A study of Eriobotrya japonica with 9 samples.

Results

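*EjJAZ14* (Ej00076455), *EjJAZ15* (Ej00049095) and *EjJAZ16* (Ej00024333) are 3 of the 16 JAZ genes, and of the 26 TIFY genes, that the study named in loquat (*Eriobotrya japonica*), an evergreen fruit tree of the rose family. The 3 genes were taken because the study listed every pair among them as duplicates of each other, and because they include the JAZ gene with the most RNA in the leaf, so that the top place of that gene is a description here and not a result. Their identifiers came from the study's table of family members, and each has a row in the deposited expression table, which holds 43996 genes. All 3 passed the filter on low values, as did 23641 genes in all. No sequence of the 3 genes is printed, because the files used here hold none.

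JAZ (jasmonate ZIM-domain) proteins are repressors of the response to jasmonate, the plant hormone of wounding, insect attack and several abiotic stresses. In *Arabidopsis thaliana* they hold transcription factors such as MYC2 inactive by recruiting corepressors. When the conjugate of jasmonate with isoleucine accumulates, it joins JAZ proteins to the F-box protein COI1, the JAZ proteins are degraded by the proteasome, and the transcription factors are released. Many JAZ genes of *Arabidopsis* are themselves switched on by jasmonate, so that their RNA and protein need not move together.

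The leaves came from loquat seedlings, which the study raised from seed through tissue culture and then transplanted. Control plants (CK) were watered. The second group (ST) was watered and then given NaCl at 200 mmol/L, and the third (MTST) had its roots irrigated with melatonin, an indoleamine, at 150 µmol/L before the same NaCl treatment. Leaves were sampled on day 10, with 3 libraries per group, which the study describes as biological replicates for CK and the NaCl group. How many plants went into a library is not stated in the sources used here, and melatonin without NaCl was not analysed.

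The 9 libraries held 13048770 to 14468499 reads, and, as a check of the leaf label, 63 to 65 of the 69 genes on the KEGG photosynthesis map were above 0 in each. Those genes summed to 64545 to 69085 TPM (the share of the transcripts in a library, on a fixed total) in CK, 36260 to 40556 TPM in ST and 51002 to 55634 TPM in MTST. The 10 genes with the highest TPM held 11.2% to 11.6% of the summed TPM in CK, 5.55% to 6.09% in ST and 9.34% to 10.3% in MTST. TPM values share a fixed total. On the log2(TPM + 1) scale the median of all tested genes was 0.41 higher in ST than in CK, 0.22 lower in MTST than in ST (−0.22), and 0.19 higher in MTST than in CK. Each change below is therefore given on TPM and after division of the libraries by median-of-ratios factors, which bring the median gene to within 0.012 of no change.

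*EjJAZ15* was the most abundant TIFY transcript in each of the 9 libraries, and also the first of the 353 genes annotated to the KEGG map of plant hormone signal transduction. Its expression was 1229.75, 1259 and 965 TPM in the 3 CK libraries. It was 1156, 956 and 915 TPM in ST and 1086, 931 and 856 TPM in MTST. The 3 groups overlapped, with means of 1151 ± 162 TPM in CK, 1009 ± 129 TPM in ST and 958 ± 117 TPM in MTST (SD, n = 3). Among all genes of the table it ranked between 60th and 114th. This repressor gene alone thus made up 46.0% to 47.4% of the summed TPM of the 16 *EjJAZ* genes in CK, 39.9% to 42.9% in ST and 47.0% to 52.0% in MTST.

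*EjJAZ14* was the second most abundant TIFY transcript in every library, and ranked 2nd to 4th on the hormone map. It was at 539, 556 and 458 TPM in CK. It was at 487, 354 and 354 TPM in ST and at 351, 337 and 247 TPM in MTST. ST overlapped CK through its replicate 1 only, whereas all 3 MTST libraries were below every CK library and also below every ST library, the closest pair being 351 and 354 TPM. The means were 517 ± 52.6 TPM in CK, 398 ± 76.5 TPM in ST and 312 ± 56.5 TPM in MTST. Its share of the summed *EjJAZ* TPM was 20.3% to 22.5% in CK, 15.9% to 16.8% in ST and 14.99% to 17.0% in MTST.

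*EjJAZ16* was the lowest of the 3 in every library, with 564 to 1335 reads per library. It was at 56.4, 60.02 and 43.5 TPM in CK. It was at 116, 61.4 and 75.0 TPM in ST and at 72.7, 68.3 and 69.2 TPM in MTST. Every ST and MTST library was above every CK library, although ST replicate 2 exceeded the highest CK library by little, and its 701 reads (95% Poisson interval 650 to 755) lay between the 697 and 737 reads of CK replicates 1 and 2. The means were 53.3 ± 8.70 TPM in CK, 84.3 ± 28.6 TPM in ST and 70.0 ± 2.30 TPM in MTST. Intervals of this kind cover counting error only. The spread in ST rested on replicate 1, without which the mean of the group was 68.2 TPM.

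**Figure D1:**
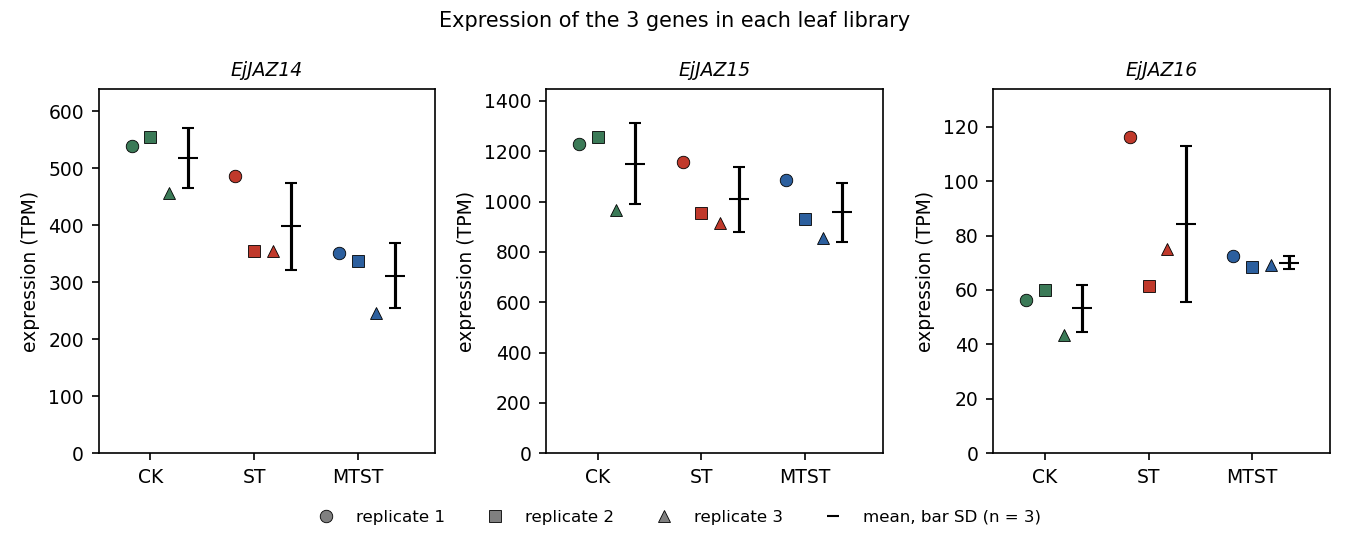
Expression in TPM (vertical axis, from 0, a different range in each panel) of *EjJAZ14*, *EjJAZ15* and *EjJAZ16* in the 3 libraries of CK, ST and MTST, with symbols for the replicates and the mean and SD (n = 3) in black. The *EjJAZ14* libraries of MTST lie below all others, the *EjJAZ15* groups overlap, and the CK libraries of *EjJAZ16* lie below those of ST and MTST.

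The order of the duplicates was the same in every library, *EjJAZ15* above *EjJAZ14* above *EjJAZ16*. In each group the lowest library of *EjJAZ14* was above the highest library of every TIFY gene other than *EjJAZ15*. The third gene in CK, *EjJAZ5*, averaged 155 ± 48.7 TPM, and the third in ST and in MTST, *EjJAZ11*, averaged 215 ± 45.7 and 147 ± 18.2 TPM. *EjJAZ16* ranked 11th of the 26 TIFY genes in the CK libraries, 8th or 9th in ST and 6th in MTST. The ranges of its neighbours over the libraries of a group overlapped its own. Within the libraries, however, *EjZML4* in CK (9th or 10th) and *EjJAZ5* in ST (6th or 7th) always ranked above *EjJAZ16*. In CK it stood between *EjZML4* (62.1 ± 8.59 TPM) and *EjZML1* (47.6 ± 1.71 TPM), genes of the ZML subfamily of TIFY proteins. In ST it overlapped *EjJAZ5* (108 ± 15.8 TPM) above and *EjJAZ1* (74.6 ± 5.09 TPM) below. In MTST *EjJAZ1* (69.1 ± 4.30 TPM) again overlapped it from below, and *EjJAZ5* (98.6 ± 30.8 TPM) from above.

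**Figure D2:**
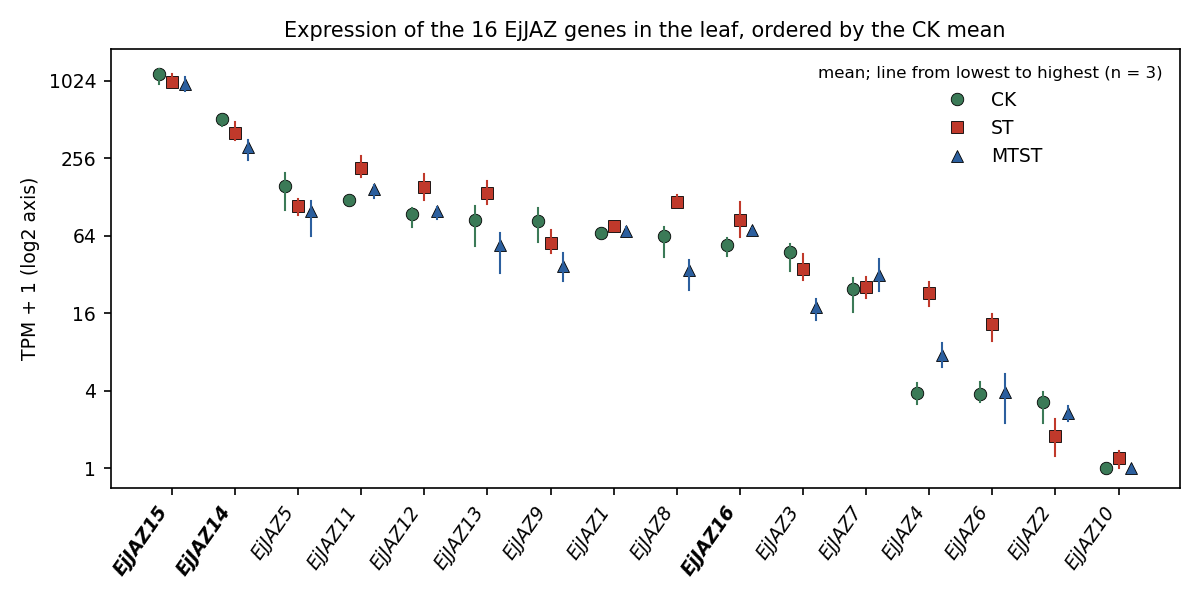
Mean TPM + 1 (vertical log2 axis) of the 16 *EjJAZ* genes in CK (circles), ST (squares) and MTST (triangles), ordered by the CK mean, with lines from the lowest to the highest of the 3 libraries. *EjJAZ15* and *EjJAZ14* stand above the other genes in all 3 groups, and *EjJAZ16* stands among the middle genes at 53.3 to 84.3 TPM.

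The summed RNA of the 3 genes was 1466 to 1875 TPM in CK, 1345 to 1759 TPM in ST and 1172 to 1509 TPM in MTST. It formed 68.5% to 72.0% of all *EjJAZ* TPM in CK, 60.6% to 61.6% in ST and 67.5% to 71.2% in MTST. The ST libraries were thus all below the others in this share, while the summed *EjJAZ* TPM averaged 2464 in CK, 2443 in ST and 1934 in MTST.

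The comparison of ST with CK asked what NaCl alone did to the 3 genes. On TPM, *EjJAZ16* was higher in ST, *EjJAZ14* and *EjJAZ15* were not called, and 52.8% of all tested genes were called higher and 10.6% lower. The log2 fold change of *EjJAZ16* was 0.61 ± 0.20 (SE, n = 3 per group, limma adjusted p = 0.022). All 3 ST libraries were above every CK library, as for 56% of all genes. That of *EjJAZ14* was −0.39 ± 0.16 (adjusted p = 0.059, 95% interval −0.75 to −0.025), and that of *EjJAZ15* was −0.19 ± 0.14 (adjusted p = 0.27, 95% interval −0.51 to 0.13). Thus 1 of the 3 duplicates was called higher and 0 lower, with 2 of 3 under an unadjusted p of 0.05. The rise of *EjJAZ16* lost its call without CK replicate 3 (log2 fold change 0.48, adjusted p = 0.076, all alternatives 0.0038 to 0.51) and was 0.36 without ST replicate 1 (adjusted p = 0.048). *EjJAZ14* was called lower without CK replicate 3, ST replicate 1 or MTST replicate 3, at log2 fold changes of −0.47, −0.54 and −0.39.

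Relative to the median gene, both abundant duplicates were low in ST and *EjJAZ16* was close to the median. With the median-of-ratios factors, which scaled the ST libraries by 1.35 to 1.40 times the mean CK factor, *EjJAZ14* was lower in ST at a log2 fold change of −0.84 ± 0.17 (limma adjusted p = 0.0024, all alternatives 0.0024 to 0.18). *EjJAZ15* was lower as well, at −0.64 ± 0.14 (adjusted p = 0.0049, all alternatives 0.0049 to 0.55). *EjJAZ16* was not called, at 0.17 ± 0.19 (adjusted p = 0.51). On this scale 2 of the 3 genes were called lower beside 23.5% of all genes, and 0 higher beside 22.6%. The *EjJAZ15* libraries then ran from 1123 to 1465 in CK and from 780 to 956 in ST without overlap, as did those of *EjJAZ14*, from 532 to 647 in CK and from 302 to 402 in ST, a gap that 27.3% of all genes showed. Those of *EjJAZ16* overlapped, at 50.6 to 69.8 in CK and 52.8 to 96.2 in ST. On TPM, *EjJAZ14* stood at percentile 10.6 of the fold changes of all tested genes, *EjJAZ15* at 15.7 and *EjJAZ16* at 65.2. The fall of the first 2 genes in ST was called after scaling, but not in the TPM fit given above. Whether it reflects less of their RNA per cell, fewer cells that express them or the scaling itself cannot be told apart in bulk leaf RNA. The photosynthesis genes above moved with the same groups, and their part in these results was not tested.

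Comparing MTST with ST asked what melatonin given before NaCl changed. None of the 3 genes was called (0 of 3 by limma, 0 of 3 at an unadjusted p under 0.05, and 0 of 3 by limma-voom), while 7.9% of all genes were called higher and 29.8% lower. *EjJAZ14* was lower in 3 of 3 MTST libraries than in any ST library, where 40.9% of all genes showed such a gap. Its log2 fold change was −0.35 ± 0.16 (limma adjusted p = 0.11, all alternatives 0.044 to 0.64, 95% interval −0.72 to 0.0096). That of *EjJAZ15* was −0.075 ± 0.14 (adjusted p = 0.70, 95% interval −0.39 to 0.24) and that of *EjJAZ16* was −0.21 ± 0.20 (adjusted p = 0.43, 95% interval −0.66 to 0.23). After median-of-ratios scaling, *EjJAZ14* stayed slightly negative at −0.12, and *EjJAZ15* and *EjJAZ16* turned positive at 0.16 and 0.024. Again 0 of 3 were called, beside 15.1% of all genes higher and 13.6% lower. On that scale the *EjJAZ14* libraries overlapped, at 240 to 349 in MTST and 302 to 402 in ST. Equal expression in MTST and ST was not shown, since the TPM intervals of *EjJAZ14* and *EjJAZ16* reach down to −0.72 and −0.66.

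MTST was also compared with CK, which takes both treatments together and shares its control libraries with the first comparison. *EjJAZ14* was lower in MTST, at a log2 fold change of −0.74 ± 0.16 (limma adjusted p = 0.0051), a call made under every alternative tried (adjusted p 0.0017 to 0.023). Every MTST library was below every CK library, as for 15.3% of all genes. This was 1 of the 3 genes called lower, beside 10.9% of all genes, and 0 of 3 were called higher, beside 29.7%. *EjJAZ15* was at −0.26 ± 0.14 (adjusted p = 0.17, 95% interval −0.58 to 0.057) and *EjJAZ16* at 0.40 ± 0.20 (adjusted p = 0.14, 95% interval −0.046 to 0.85). The *EjJAZ16* libraries did not overlap, being higher in 3 of 3 MTST libraries, as for 39.7% of all genes. *EjJAZ15* was called lower without CK replicate 3 (−0.38, adjusted p = 0.047, all alternatives 0.027 to 0.41), and *EjJAZ16* was called higher without ST replicate 1 (0.40, adjusted p = 0.025, all alternatives 0.025 to 0.47). With median-of-ratios scaling, *EjJAZ14* was at −0.95 (adjusted p = 0.0018) and *EjJAZ15* at −0.47 (adjusted p = 0.027), both called lower, beside 18.8% of all genes (17.1% higher). Both were without overlap on that scale, as were 26.4% of all genes. *EjJAZ16* was at 0.19 (adjusted p = 0.47), and its scaled libraries overlapped, at 67.2 to 72.4 in MTST and 50.6 to 69.8 in CK. *EjJAZ14* stood at percentile 5.36 of all tested genes on TPM, with 1267 genes below it.

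**Figure D3:**
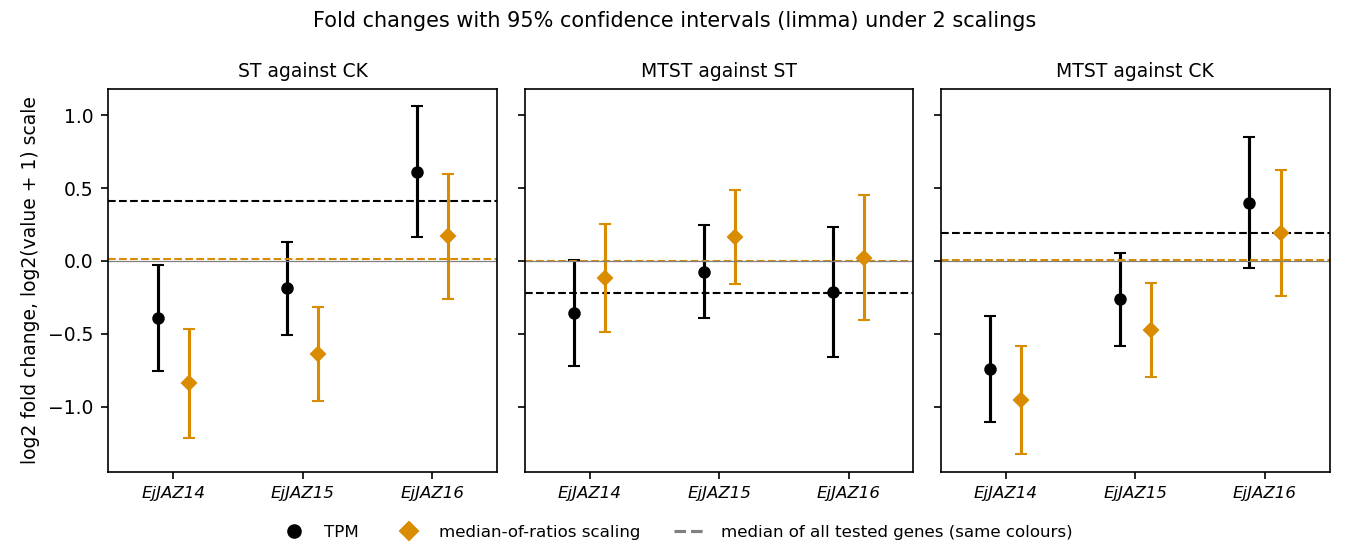
Log2 fold changes of the 3 genes (points, with 95% confidence intervals from limma) in the 3 comparisons, on log2(TPM + 1) in black and after median-of-ratios scaling in orange, with the median of all tested genes as a dashed line of the same colour. *EjJAZ14* lies below the dashed line of its scale in each comparison, although its intervals in MTST against ST include that line. *EjJAZ15* lies below the line in both comparisons with CK, and the intervals of *EjJAZ16* include the line throughout.

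The duplicates did not keep a fixed ratio to each other, a measure that leaves out the scaling of the libraries apart from the pseudocount of 1. In CK there were 21.8, 21.0 and 22.2 transcripts of *EjJAZ15* for each one of *EjJAZ16*. In ST there were 9.93, 15.6 and 12.2, and in MTST 14.9, 13.6 and 12.4. The CK libraries agreed closely, at 21.7 ± 0.633, and lay above all ST libraries (12.6 ± 2.84) and all MTST libraries (13.7 ± 1.29). The log2 ratio thus differed from CK by −0.80 in ST and by −0.66 in MTST, and by 0.14 between MTST and ST, where the libraries overlapped. An exact permutation test of 3 against 3 libraries cannot go below 0.10, the value it gave for both comparisons with CK, and it gave 0.60 for MTST against ST (two-sided, 0.13 and 0.60 after Benjamini-Hochberg adjustment over 9 ratio comparisons). For comparison, 22.5% of all genes showed a ratio to *EjJAZ16* that was lower in every ST library than in any CK library, and 35.8% in MTST.

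When the 3 log2 ratios entered 1 limma fit with all genes, a test chosen after the values were seen, the fall of *EjJAZ15* relative to *EjJAZ16* was called in ST (−0.80 ± 0.16, limma adjusted p = 0.0021, 95% interval −1.15 to −0.45) and in MTST (−0.66 ± 0.16, adjusted p = 0.0098, 95% interval −1.02 to −0.31) against CK. Leaving out any single library kept both calls, with the highest adjusted p at 0.0085 in ST and 0.039 in MTST. Between MTST and ST the difference was 0.14 ± 0.16 (adjusted p = 0.51, 95% interval −0.22 to 0.49), and without ST replicate 1 it was −0.018.

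The ratio of *EjJAZ15* to *EjJAZ14* was highest in MTST. For each transcript of *EjJAZ14* there were 2.28, 2.26 and 2.11 of *EjJAZ15* in CK. There were 2.38, 2.699 and 2.58 in ST, and 3.10, 2.76 and 3.47 in MTST. The 3 groups did not overlap, CK being lowest (2.22 ± 0.0944), ST in between (2.55 ± 0.164) and MTST highest (3.11 ± 0.354). The log2 ratio rose by 0.48 ± 0.11 from CK to MTST (limma adjusted p = 0.0085, 95% interval 0.23 to 0.73), and this call held without any single library. The steps of 0.20 ± 0.11 from CK to ST (adjusted p = 0.14, 95% interval −0.047 to 0.45) and 0.28 ± 0.11 from ST to MTST (adjusted p = 0.075, 95% interval 0.031 to 0.53) were not called, the second being called without MTST replicate 2 (adjusted p = 0.048). All 3 exact permutation p-values were 0.10, the smallest possible. The share of all genes whose ratio to *EjJAZ14* was higher without overlap was 67.9% in ST against CK, 17.9% in MTST against ST and 80.2% in MTST against CK.

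The ratio of *EjJAZ16* to *EjJAZ14* showed the largest differences from CK of the 3 ratios. In CK it was 0.105, 0.108 and 0.0950. It was 0.239, 0.173 and 0.212 in ST and 0.207, 0.202 and 0.280 in MTST. All 6 NaCl-treated libraries lay above the CK libraries, and ST and MTST overlapped. On the log2 scale the ratio was 1.0005 ± 0.16 higher in ST than in CK (limma adjusted p = 0.00071) and 1.14 ± 0.16 higher in MTST than in CK (adjusted p = 0.00090), that is 2.001-fold and 2.21-fold, with exact permutation p-values of 0.10. Both calls held without any single library (adjusted p at most 0.0037 and 0.0047). MTST and ST differed by 0.14 ± 0.16 (adjusted p = 0.51). A ratio to *EjJAZ14* that was higher without overlap was also what most genes showed against CK, at the 67.9% and 80.2% given above, so these gaps are not particular to *EjJAZ16*. The counting of reads that match more than 1 gene is not given in the sources used here. Any reads that match both *EjJAZ15* and *EjJAZ16* could have been split or lost, and the likeness of their sequences was not examined.

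**Figure D4:**
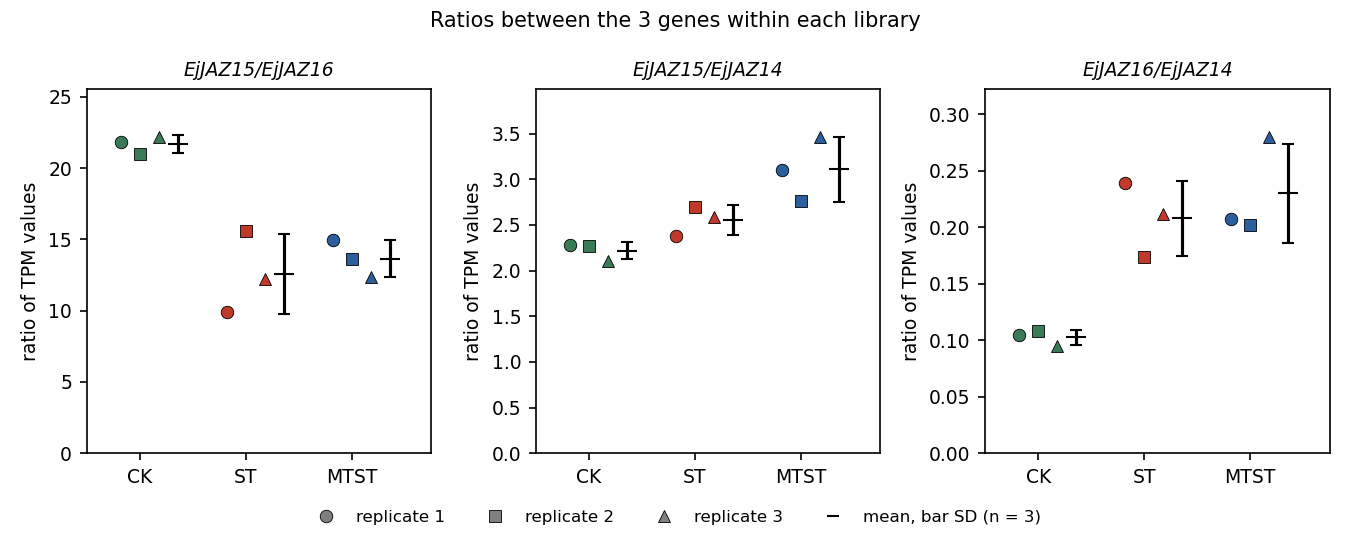
Ratios of TPM values (vertical axis, from 0) between the 3 genes within each library of CK, ST and MTST, with the mean and SD (n = 3) in black. *EjJAZ15*/*EjJAZ16* is 21.0 to 22.2 in CK and at most 15.6 in the other libraries, *EjJAZ15*/*EjJAZ14* is highest in MTST, and *EjJAZ16*/*EjJAZ14* is at most 0.108 in CK and at least 0.173 elsewhere.

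Within the groups the 3 genes varied with particular libraries. CK replicate 3 was the lowest CK library for all 3 genes and for 13 of the 15 tested *EjJAZ* genes, against 41.7% of all genes. ST replicate 1 was the highest ST library for all 3 and for 13 of 15, against 44.6% of all genes. CK replicate 2 was the highest CK library for all 3 and for 11 of 15, against 33.9% of all genes. MTST replicate 1 was the highest MTST library for all 3 and for 10 of 15, against 31.7% of all genes, and MTST replicate 3 was the lowest for *EjJAZ14* and *EjJAZ15* and for 13 of 15, against 26.4% of all genes. CK replicate 3 and ST replicate 1 differed most from their fellow replicates over all genes, the mean chi-square over genes being 10.8 and 18.4 for CK replicate 3 and 27.2 and 14.1 for ST replicate 1, against 3.11 between CK replicates 1 and 2 and 6.96 between ST replicates 2 and 3. Every replicate pair thus differed by more than sampling noise, and no library was counted as a repeat of another.

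Over the 9 libraries *EjJAZ15* and *EjJAZ14* varied together, with a Pearson r of 0.86 for log2(TPM + 1) and 0.92 after median-of-ratios scaling. *EjJAZ16* varied apart from both, with r of 0.098 with *EjJAZ15* and −0.12 with *EjJAZ14*. These values describe 9 points that share treatment groups and library scaling. The TIFY gene most like *EjJAZ14* was *EjJAZ9* (r = 0.97), another JAZ repressor gene, which on TPM was also the one most like *EjJAZ15* (r = 0.91). After median-of-ratios scaling *EjJAZ14* was closer to *EjJAZ15* (r = 0.92) than *EjJAZ9* was (r = 0.90). The TIFY gene most like *EjJAZ16* was *EjZML2* (r = 0.91, and 0.82 after median-of-ratios scaling). In the whole table the closest genes were Ej00022021 to *EjJAZ14* (r = 0.98), Ej00001561 to *EjJAZ15* (r = 0.98) and Ej00022377 to *EjJAZ16* (r = 0.99), none of which is on a KEGG map. An r above 0.9 was reached by 132 genes with *EjJAZ14*, 11 with *EjJAZ15* and 143 with *EjJAZ16*.

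The deposited annotation treats *EjJAZ15* and *EjJAZ16* as the same kind of gene and *EjJAZ14* as a less described one. *EjJAZ15* and *EjJAZ16* carry the same 86 GO biological process terms, and *EjJAZ14* carries 39, all of them shared with the other two. The 10 cellular component and 4 molecular function terms are identical in all 3, and each is on 1 KEGG map, that of plant hormone signal transduction. All 3 are annotated to transcription corepressor activity, the nucleus, the response to wounding and the regulation of jasmonic acid mediated signalling, terms that 13 of the 16 *EjJAZ* genes carry. Only *EjJAZ15* and *EjJAZ16* of the 3 carry the jasmonic acid mediated signalling pathway itself (4 of 16 *EjJAZ* genes) and the response to jasmonic acid (6 of 16). No other *EjJAZ* gene shares their terms for flower development, pollen development and the defence response to bacteria. No *EjJAZ* gene is annotated to the response to salt stress or to abscisic acid.

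Of the other *EjJAZ* genes, 12 were tested. Against CK, ST had 5 of the 12 higher and 1 lower on TPM, beside 52.8% and 10.6% of all genes, and 2 higher and 5 lower after median-of-ratios scaling, beside 22.6% and 23.5%. The largest rise on both scales was that of *EjJAZ4*, at 2.59 on TPM and 2.20 after scaling, from 2.81 TPM in CK to 21.97 TPM in ST. *EjJAZ9* was at −0.56 on TPM (adjusted p = 0.068) and fell to −1.01 after scaling (adjusted p = 0.0077). In MTST against ST, 0 of the 12 were higher and 7 lower on TPM, beside 7.9% and 29.8% of all genes (0 and 5 after scaling, beside 15.1% and 13.6%). In MTST against CK 1 was higher and 3 lower, beside 29.7% and 10.9% (1 and 4 after scaling, beside 17.1% and 18.8%). The median over the 15 tested *EjJAZ* genes was 0.17, −0.54 and −0.26 in the 3 comparisons, beside 0.41, −0.22 and 0.19 over all genes.

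The counts for the other genes of the pathway are to be read beside the shares of all tested genes. On TPM these were 52.8% higher and 10.6% lower in ST against CK, 7.9% and 29.8% in MTST against ST, and 29.7% and 10.9% in MTST against CK. After scaling they were 22.6% and 23.5%, 15.1% and 13.6%, and 17.1% and 18.8%. The hormone map without the 3 duplicates had 142 of 252 tested genes higher and 28 lower in ST against CK, 17 higher and 81 lower in MTST against ST, and 80 higher and 25 lower in MTST against CK. After scaling these were 75 and 55, 37 and 41, and 52 and 42. Of 26 tested genes for jasmonic acid biosynthesis, 16 were higher and 2 lower in ST than in CK (11 and 4 after scaling). In MTST against ST, 0 of them were higher and 16 lower (0 and 14 after scaling), with a median log2 fold change of −0.64 on TPM.

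The map of alpha-linolenic acid metabolism, the source of jasmonate, had 26 of 50 tested genes higher and 7 lower in ST against CK (18 and 14 after scaling), and 5 higher and 23 lower in MTST against ST (6 and 17 after scaling). Of the 41 tested genes annotated to the regulation of jasmonate signalling other than the 3, 20 were higher and 4 lower in ST than in CK (11 and 15 after scaling), and 0 higher and 17 lower in MTST than in ST (3 and 12 after scaling). The larger count on this list, which holds 10 *EjJAZ* genes besides the 3, was thus on the higher side on TPM and on the lower side after scaling in ST against CK. Of 92 genes of the jasmonate signalling pathway other than the duplicates, 56 were higher and 10 lower in ST than in CK (28 and 21 of 91 after scaling), and 5 higher and 41 lower in MTST than in ST (11 and 21 after scaling). Of 215 genes for the response to jasmonic acid, 115 were higher and 34 lower in ST than in CK (64 and 66 after scaling), and 13 higher and 89 lower in MTST than in ST (27 and 53 after scaling).

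The response to wounding, a term all 3 duplicates carry, had 109 of 239 other genes higher and 52 lower in ST against CK (56 and 94 after scaling), and 21 higher and 109 lower in MTST against ST (39 and 58 after scaling). The response to salt stress had 338 of 583 genes higher and 52 lower in ST against CK (156 and 155 of 581 after scaling), and 27 higher and 228 lower in MTST against ST (68 and 91 after scaling). The response to abscisic acid, a hormone of drought and salinity, had 310 of 515 genes higher and 57 lower in ST against CK (141 and 128 of 514 after scaling), and 29 higher and 204 lower in MTST against ST (68 and 102 after scaling).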

How the data were processed

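Leaf RNA of 9 loquat samples in 3 groups was sequenced. The authors trimmed the reads, aligned them with HISAT2 to a loquat genome, counted them per gene with Rsubread and deposited FPKM values, with tool versions not given in the sources used here. The deposited table also holds the authors' own DESeq2 comparisons (fold changes and p-values), which were not used. All columns of sample values were mapped from their labels, and 0 were left unmapped.

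FPKM was rescaled to TPM. Whole reads and gene lengths were recovered for 31458 of 31458 genes above 0 (tolerance 1e-05 reads). The recovered lengths of *EjJAZ14*, *EjJAZ15* and *EjJAZ16* were 1177, 1287 and 1287 bases. Expression was compared as log2(TPM + 1) by limma (version 3.58.1, R version 4.3.3, moderated by empirical Bayes with a trend). The model had group as its only term and took all 9 libraries and the 23641 genes that reached 1 TPM in 3 or more of them. Genes were called when p, adjusted over all genes by Benjamini-Hochberg, did not exceed 0.05. Fold changes on this scale understate those of low genes. Ratios used exact permutation tests, and 1 limma fit without trend over 23644 features. The limma step was tested on simulated data. Alternatives were a pseudocount of 0.1, no filter, FPKM, median-of-ratios scaling, limma-voom on recovered reads, only the 2 groups compared, a replicate block and leaving out each library. Figures used Python 3.11.15 and matplotlib 3.10.9.

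The named genes were the 3 duplicates, other TIFY genes and the genes most correlated with each, and the lists were taken from KEGG maps and GO identifiers in the deposited table. The members, lists and tests were chosen with earlier results of these data known. The replicates of MTST are not described as biological in the sources, so that its 3 libraries may differ by technical spread only. The limma p-values of its comparisons rest on a spread estimated over all 9 libraries, which may then be too small.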

Additional observations from a re-analysis of the deposited data

How the results depend on the processing

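The fall of *EjJAZ14* in MTST against CK was called under every alternative. The all-gene limma fit called 5 of the 9 ratio comparisons (−0.80, −0.66, 0.48, 1.0005 and 1.14), which the exact test could not. How many ratios of other genes that fit would call was not computed. A ratio to *EjJAZ14* higher than in CK without overlap was shown by 67.9% of all genes in ST and 80.2% in MTST. Calls of single genes in ST against CK depended on the scaling. *EjJAZ14* was called lower with FPKM (−0.46), median-of-ratios scaling (−0.84) and limma-voom (−0.47), and *EjJAZ15* with median-of-ratios scaling (−0.64, and −0.47 in MTST against CK). *EjJAZ16* lost its call with median-of-ratios scaling (0.17) and with only the 2 groups compared (0.61, adjusted p = 0.052), and gained one in MTST against CK in the latter (0.40). In MTST against ST, *EjJAZ15* turned positive with FPKM (0.0095), median-of-ratios scaling (0.16) and limma-voom (0.0096), and *EjJAZ16* with median-of-ratios scaling (0.024). The cause was not tested.

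Over all tested genes, same-numbered libraries did not deviate together (correlations from −0.15 to 0.083), and the labels name no source that they share. Low correlations cannot exclude a block that acts on some genes, so whether the replicate numbers pair the samples was not settled. A replicate block kept the fold changes of *EjJAZ14* and called them in ST against CK (−0.39, adjusted p = 0.018) and MTST against ST (−0.35, adjusted p = 0.044). It called 4 other *EjJAZ* genes lower in ST against CK, beside 2476 of all 23641 tested genes. In MTST against CK it called 5 lower, beside 2453 of all 23641.

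Of the other *EjJAZ* genes in ST against CK, 2 were called lower with FPKM, beside 2803 of 22697 genes in all. With limma-voom 2 were called lower, beside 2815 of 23641. Median-of-ratios scaling gave 2 higher and 5 lower, beside 5323 and 5545 of 23575 genes. The hormone map under that scaling gave 75 higher and 55 lower, 37 and 41, and 52 and 42 in the 3 comparisons.

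Leaving out each library in turn gave these ranges for ST against CK: −0.54 to −0.31 (*EjJAZ14*), −0.31 to −0.12 (*EjJAZ15*) and 0.36 to 0.81 (*EjJAZ16*). MTST against ST gave −0.45 to −0.19, −0.17 to 0.027 and −0.41 to 0.045, and MTST against CK −0.83 to −0.58, −0.38 to −0.18 and 0.26 to 0.49. The log2 ratio *EjJAZ15*/*EjJAZ16* ranged from −0.96 to −0.64, −0.018 to 0.30 and −0.73 to −0.59, *EjJAZ15*/*EjJAZ14* from 0.16 to 0.25, 0.20 to 0.36 and 0.40 to 0.56, and *EjJAZ16*/*EjJAZ14* from 0.90 to 1.12, −0.0089 to 0.25 and 0.99 to 1.23. The other *EjJAZ* genes called higher and lower in ST against CK ranged from 5 to 6 and 0 to 3. Those in MTST against ST ranged from 0 to 1 and 5 to 8, and those in MTST against CK from 1 to 2 and 2 to 5. For the hormone map without the 3 genes, 126 to 140 were higher and 17 to 28 lower in ST against CK. In MTST against ST, 9 to 18 of its genes were higher and 62 to 87 lower. In MTST against CK, 68 to 89 of them were higher and 19 to 30 lower. Of the 23188 to 23536 genes tested in these fits, 10908 to 12316 were higher and 2071 to 2518 lower in ST against CK. In MTST against ST, 1313 to 2036 were higher and 4876 to 7354 lower. In MTST against CK, 5399 to 7592 were higher and 1825 to 2806 lower. Depth limits *EjJAZ16* most, at 564 reads in its lowest library.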
